A study of Mus musculus with 14 samples.

Results

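Of 1164 H3K27me3 regions called unique to the 12-week mouse heart by the authors, 495 (42.5%) carried no linked gene in any of their rows and are described here. The deposited list gives each region a position, a width, an enrichment score and, for the other 669 regions, 1 or more linked genes. In the matching 68-week list 1725 of 3433 regions (50.2%) carried no linked gene. Hearts came from male wild-type C57BL/6 mice on a standard chow diet, sampled at 12 or at 68 weeks of age. For each age the authors compiled 1 list from 2 H3K27me3 libraries and an input, and 4 RNA-seq libraries were made from whole heart. The regions come from CUT&RUN, in which an antibody guides an enzyme that cuts out the DNA around it. It was run on powdered, lightly fixed tissue, so all heart cell types are mixed. The sources used here do not say whether mice were pooled or whether libraries of 1 age came from separate mice. The series title concerns dietary glutamine, but the mice of both ages used here were on standard chow.

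H3K27me3 is the trimethylation of lysine 27 of histone H3. It is written by Polycomb repressive complex 2 (PRC2), whose catalytic subunits are Ezh1 and Ezh2 and whose core holds Eed and Suz12, and it is removed by the demethylases Kdm6a and Kdm6b. The mark is known for keeping developmental regulators, such as the Hox, Gata and Sox transcription factors, silent in cells that do not use them. It also covers stretches between genes, where a region has no gene assigned to it.

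The lists hold only regions called unique to 1 age and no value per library. There is no replicate error for a region, and widths, scores and gaps are given as descriptions with no test. Scores are the authors' own, on an unstated scale. Scores of the 68-week list stand beside them as that list's own, with no difference read between ages, because the lists were compiled separately. Positions are printed as the deposited list gives them, with no build. The genes linked to them did not lie at matching positions in the count tables, as only 20.6% of 2479 links put the region on its gene.

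Apart from 1 region at the start of chromosome 9, the regions without a linked gene were narrow and low in score. Over these 494 regions the width ran from 201 to 2039 bases, with a median of 265 and quartiles of 230 and 325.75. The score ran from 3.18 to 111.4, with a median of 4.49 and quartiles of 3.96 and 5.33. The 656 regions with a linked gene, counted outside the same stretch, had a median width of 272.5 bases and a median score of 4.49. The middle of both distributions therefore lay at nearly the same place, and the classes differed at their edges. A width of 500 bases or more was reached by 24 of the regions without a gene (4.86%) and by 47 of those with one (7.16%). A score of 10 or more was reached by 9 (1.82%) without a gene and 4 (0.61%) with one, but the highest score was 281.3 with a gene and 111.4 without. With the start of chromosome 9 counted, the order turned, to 10 (2.02%) without a gene and 17 (2.54%) with one. In the 68-week list the regions without a gene had a median width of 267 bases and a median score of 4.82, and 21 of them (1.22%) scored 10 or more.

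Width told little about score. Spearman's rho of width with score was 0.177 over the 494 regions without a gene and 0.209 over the 656 with one, as descriptions of regions that share their libraries. Nor did the missing link follow either measure in order. From the narrowest to the widest quartile of the 12-week list, 41.72%, 47.93%, 43.97% and 38.19% of regions had no linked gene. From the lowest to the highest quartile by score, the shares were 40.62%, 45.3%, 43.21% and 42.71%.

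**Figure D1:**
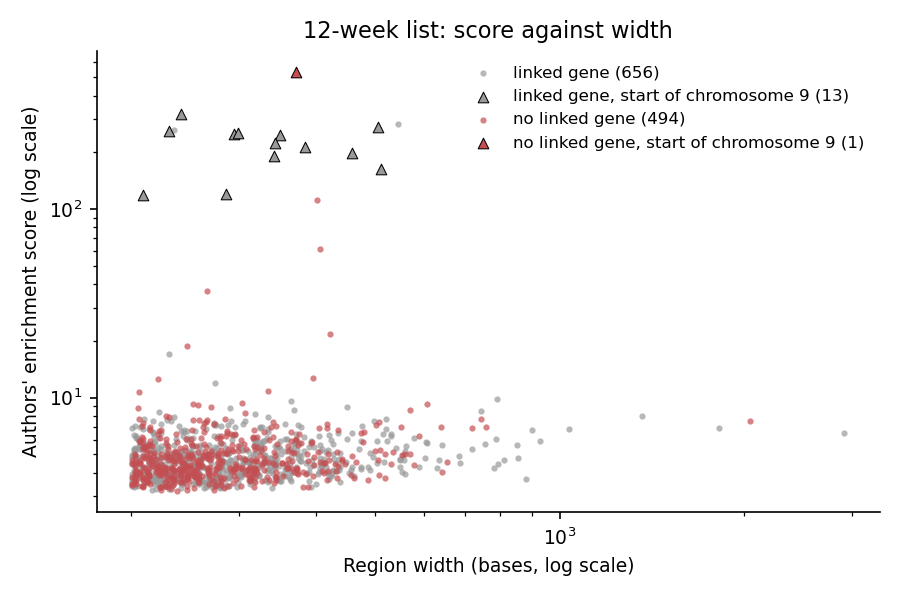
Authors' enrichment score against region width in bases for the 12-week list, both on log scales, with 1 point per region. Regions without a linked gene (red) and with one (grey) fill the same space below a score of 10, and the start of chromosome 9 (triangles) sits above 118.

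The regions without a gene were spread over all 19 autosomes and the X chromosome. Chromosome 2 held the most, 49 (9.90%), then chromosome 17 with 45 (9.09%), chromosome 6 with 43 (8.69%), chromosome 5 with 41 and chromosome 9 with 39 (7.88%). The X chromosome held 1. Chromosome 17 also held 6.73% of the 12-week regions with a gene and 4.41% of the 68-week regions without one. Without the members of groups of 5 or more regions the share on chromosome 17 was 4.27%. The share of a chromosome's 12-week regions that lacked a gene ran from 20% on X (1 of 5) to 63.16% on chromosome 18 (12 of 19), with 60.71% on chromosome 14 (17 of 28) and 31.43% on chromosome 3. On the 18 chromosomes with at least 10 such regions, median widths lay between 228.5 and 312 bases. Median scores on these ran from 4.09 on chromosome 11 to 5.52 on chromosome 14.

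**Figure D2:**
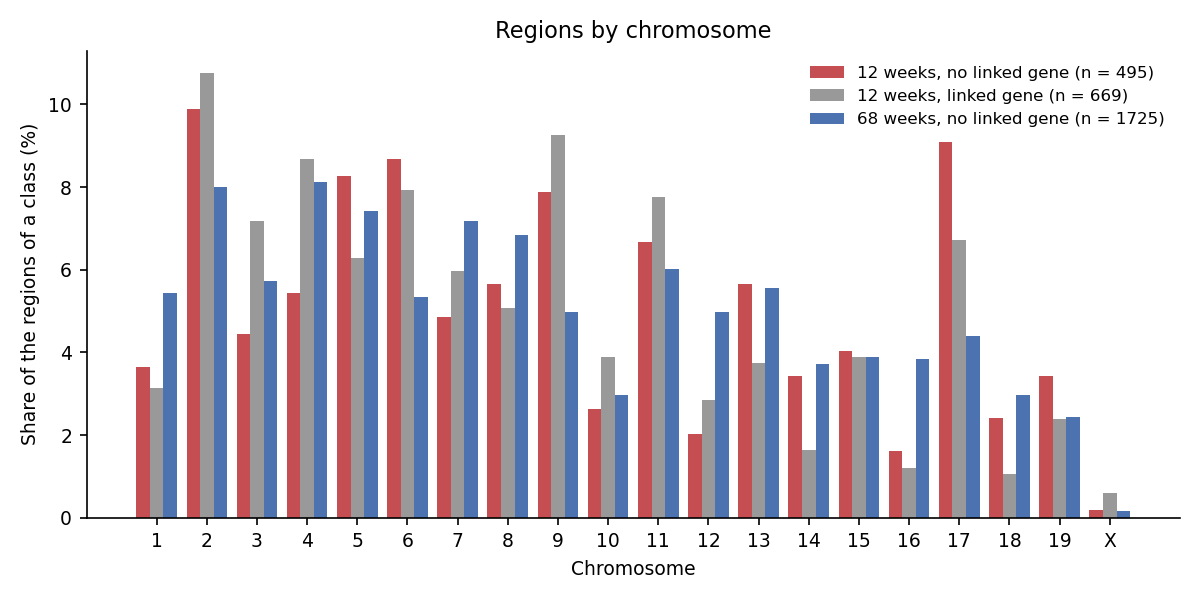
Share of the regions of a class (percent) on each chromosome, for 12-week regions without a linked gene, 12-week regions with one, and 68-week regions without one. Chromosome 17 holds 9.09% of the first class, 6.73% of the second and 4.41% of the third.

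The start of chromosome 9 held most of the high scores of the list. Its first region, at 3000269 to 3000640 and 372 bases wide, had no linked gene and scored 534.8, the highest of the 12-week list. The 13 other regions within 200 kb of that start were all linked to genes. They scored 118.9 to 319.2, with a median of 224.3, and were 209 to 511 bases wide. The region without a gene thus scored 1.68 times the highest of its neighbours and 4.80 times the next region without a gene anywhere. The 14 regions fitted into 37881 bases, with gaps of 257 to 10383 bases. Their linked genes were 8 in number, and all carry the symbols of computationally predicted genes: Gm10722, Gm11168, Gm10721, Gm10719, Gm10718, Gm10717, Gm17535 and Gm10715. The stretch ended abruptly, as the next 12-week region lay 17620799 bases on and the next one without a gene began at 20658949. No 68-week region fell in the same 200 kb. The first on that chromosome began at 3312169 and scored 4.20.

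High scores elsewhere were few and isolated. The 12-week list held 20 regions with a score of 20 or more, 14 of them at the start of chromosome 9. Of the other 6, 2 were linked to the predicted genes Gm10800 and Gm33838 and scored 281.3 and 262.0. The other 4 had no linked gene and scored lower. How reads map at these 6 was not tested either. The highest of these 4 lay on chromosome 14 at 3050768 to 3051169. It was 402 bases wide, scored 111.4, and had no other 12-week region within 11417078 bases. The second, on chromosome 7 at 124063441 to 124063847, scored 61.6 and lay 1591171 bases from the nearest linked region, that of Gsg1l, a gene for an auxiliary subunit of AMPA glutamate receptors. The third, on chromosome 6 at 67553856 to 67554121, scored 36.6 and lay 4644682 bases from the linked region of Atoh8, a basic helix-loop-helix transcription factor. The fourth, on chromosome 9 at 124254221 to 124254642, scored 21.7, with another region without a gene 3581 bases further on that scored 7.91.

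The next 4 by score fell from 18.7 to 10.8. On chromosome 13, a region at 73879664 to 73879910 scored 18.7 and lay 56181 bases from a 68-week region linked to Slc6a18, a member of the solute carrier family. On chromosome 9, a region at 102986831 to 102987226 scored 12.7 and lay 4354 bases from the region linked to Rab6b, a small GTPase of Golgi traffic. On chromosome 16, a region at 90337682 to 90337902 scored 12.5, and the nearest linked region, that of the Rac exchange factor Tiam1, was 719866 bases away. On chromosome 12, a region at 33474153 to 33474486 scored 10.8, 343543 bases from that of the cadherin gene Cdhr3. Only the Rab6b neighbour among these 8 lay within 10 kb of a region with a gene.

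Position near a chromosome's start was shared by few. Within the first 1 Mb covered by the lists, 5 regions without a gene were found. They were the chromosome 9 and chromosome 14 regions above, a pair on chromosome 10 with scores of 4.20 and 8.56, and 1 on chromosome 13 with a score of 4.54. In the 68-week list 23 such regions lay there, none with a score above 9.44.

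None of the 5 widest was among the 8 highest in score, but 4 of them scored above the 90th percentile of the 494 regions, 6.71. The widest, on chromosome 18 at 36854714 to 36856752, covered 2039 bases, scored 7.54 and lay 280 bases from another region without a gene. The next 4 were 759, 745, 718 and 654 bases wide. They lay on chromosome 9 at 61273183 (score 6.97), on chromosome 17 at 36488138 (score 7.68), on chromosome 4 at 114909029 (score 6.89) and on chromosome 17 at 56457214 (score 4.55). The second of these 4 was 1377 bases from a region linked to the predicted gene Gm6623, and the third 12362 bases from one linked to Tal1, a transcription factor of blood and endothelial development.

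Spacing was very uneven. The gap from 1 region without a gene to the next along a chromosome had a median of 917878 bases over 474 gaps, with quartiles of 20673.75 and 4880709.75. Gaps of at most 10 kb made up 98 of them (20.68%), and gaps of at most 100 kb made up 163 (34.39%). Measured to the nearest 12-week region of either kind, the median gap was 35704.5 bases, and 197 regions (39.88%) had a neighbour within 10 kb. For regions with a gene that median was 17498 bases and that share 46.65%. The closest pair, on chromosome 17 at 35745875 to 35746267 and 35746381 to 35746604, was separated by 113 bases, and its scores were 5.77 and 6.71. The most isolated region lay on the X chromosome at 59931169 to 59931382, 37263932 bases from any other 12-week region, with a score of 3.84.

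**Figure D3:**
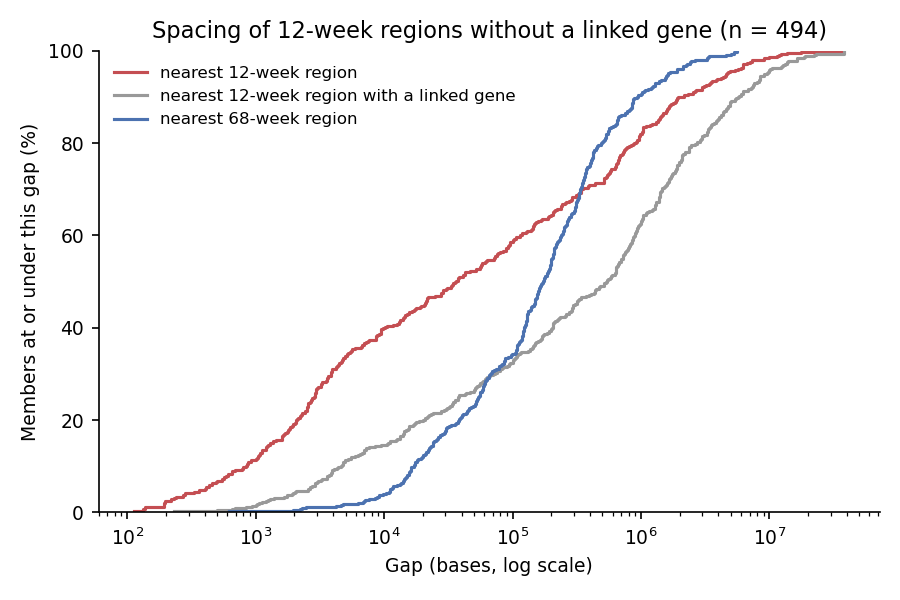
Cumulative share (percent) of the 494 regions without a linked gene against the gap in bases (log scale) to the nearest 12-week region, the nearest one with a linked gene and the nearest 68-week region. At 10 kb the first curve has reached 39.88%.

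Joined wherever the next was at most 100 kb away, the 494 regions formed 331 groups, of which 258 were single regions. The other 73 groups held 236 regions (47.77%), and 9 of these, with 5 to 11 members, held 72 (14.57%). The same joining put 56.4% of 12-week regions with a gene, and 61.39% of 68-week regions without one, into groups of at least 2. Density along the chromosome went with width slightly and with score hardly at all. Single regions had a median width of 256.5 bases and score of 4.53. Members of groups of 5 or more had 286 bases and 4.55. Of those in large groups, 12 of 72 (16.7%) lay within 100 kb of a 68-week region. The share was 35.3% of single regions and 40.2% of those in groups of 2 to 4. The 72 lay in only 9 groups, and members of a group share their surroundings, so they are not separate observations. By group, those starting at 36396266 on chromosome 17, 114760768 on chromosome 4 and 61249733 on chromosome 9 each had 1 such region within 100 kb. The other groups of 5 or more had none.

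Of 3 groups with 11 members each, 1 had no linked 12-week region among its members. It lay on chromosome 6 at 99986314 to 100113521 (127.2 kb). Its scores ran from 3.74 to 6.78, with a median of 5.10, and its gaps from 779 to 33664 bases. No 68-week region lay within 100 kb of it, and the only gene linked within that distance was the predicted gene Gm44442.

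Both other groups of 11 lay on chromosome 17, and each held regions linked to H2 genes, of the Q series in the first and the T series in the second. These H2 genes encode class I molecules of the major histocompatibility complex, which present peptides on the cell surface or have related immune roles. The first, at 35551842 to 35753611 (201.8 kb), had scores of 3.35 to 6.71 with a median of 4.22, and held the closest pair. Inside it lay 2 linked regions, of H2-Q2 and H2-Q6, with scores of 6.14 and 5.12, and no 68-week region lay within 100 kb. The second, at 36396266 to 36542906 (146.6 kb), had scores of 3.65 to 9.30 with a median of 5.04. Its 9 linked genes included H2-T3, the only one with an H2 symbol, 2410017I17Rik and the predicted gene Gm8909. It was mixed with 21 regions linked to these genes, with a median score of 5.50. A run of 3 members stood at its first edge, at 0, 4633 and 6310 bases from its start, with scores of 3.84, 6.48 and 9.20. Its linked regions came after these, as the plot of the largest groups shows.

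Next in size were a group of 9 on chromosome 3, one of 8 on chromosome 13 and one of 7 on chromosome 4. The chromosome 3 group, at 96239416 to 96384066 (144.7 kb), had a narrow range of scores, 4.01 to 5.17. It was mixed with 18 linked regions, whose genes included Platr30, Gm10685 and Rnu1b6, a gene for the U1 RNA of the spliceosome. The chromosome 13 group, at 22102323 to 22198369 (96 kb), had scores of 3.36 to 6.94. All 6 linked regions inside it belonged to Prss16, a serine protease known from the thymus. The chromosome 4 group, at 114760768 to 114909746 (149 kb), had scores of 4.03 to 8.88. It enclosed a region linked to Foxd2os, a transcript named for its place opposite the forkhead gene Foxd2, and its last members lay on the side of Tal1. Of these 3 groups, the first and second had no 68-week region within 100 kb and the third had 1.

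Small groups could be denser. On chromosome 2, 4 regions between 4718452 and 4720753 filled 49.3% of 2.3 kb, with scores of 3.66, 3.80, 4.34 and 5.62. On chromosome 9, 4 regions lay 4040 to 9494 bases from the region linked to Dock3, a gene for an exchange factor that activates Rac. On chromosome 11, 4 regions lay across 70.4 kb that also held regions linked to Gm53 and to Hoxb9, a homeobox gene of body-axis patterning. Of the 4, only the last lay within 10 kb of the Hoxb9 region, at 4259 bases. On chromosome 8, a group of 5 held a region 231 bases from that of n-R5s105, a gene for 5S ribosomal RNA, the smallest gap to a linked region outside the start of chromosome 9.

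**Figure D4:**
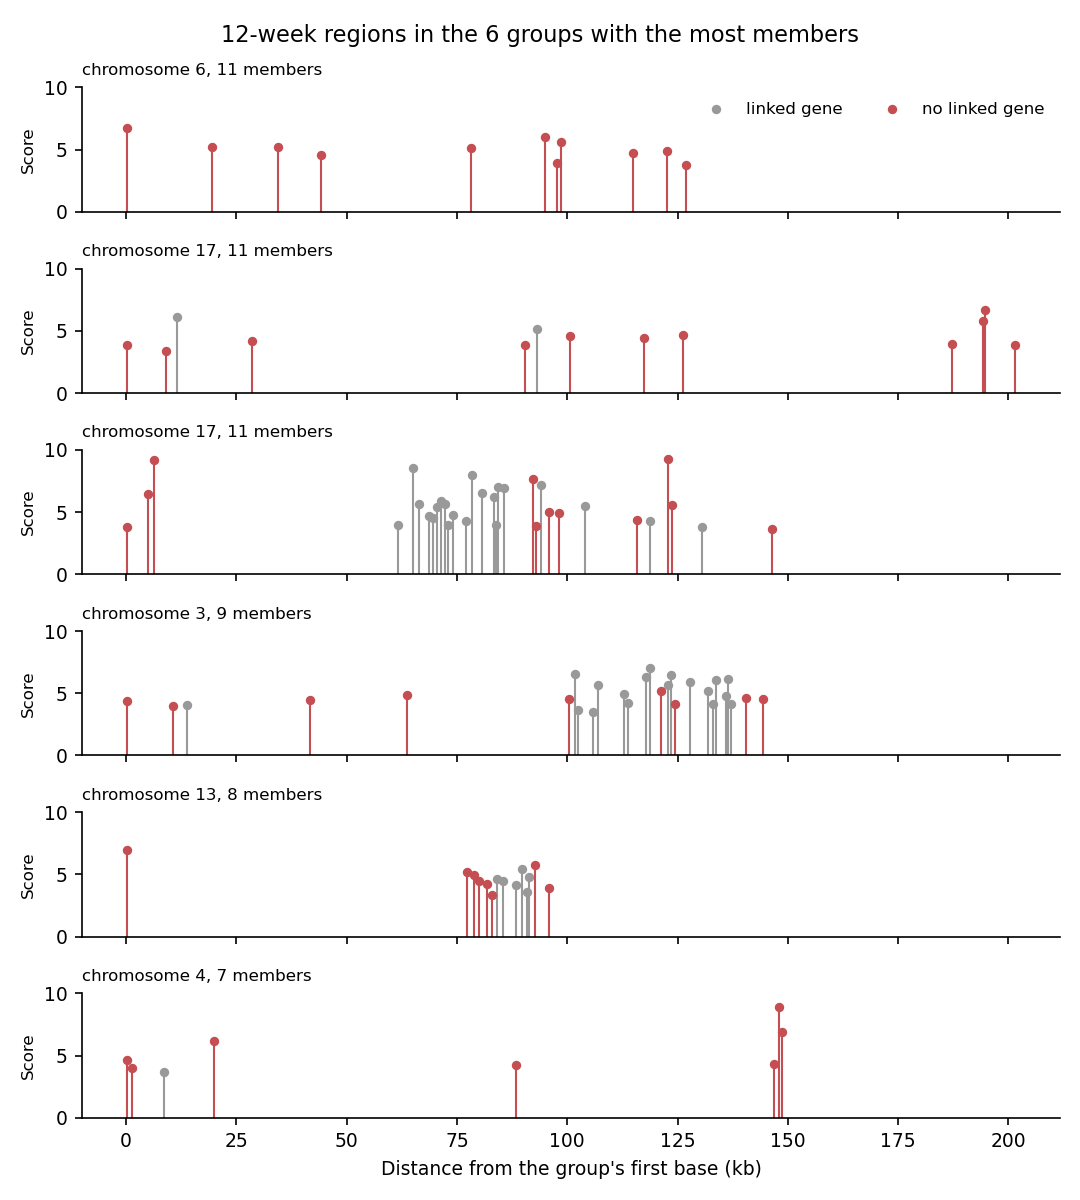
Authors' score of every 12-week region in the 6 groups with the most regions without a linked gene, by distance in kb from the group's first base. The chromosome 6 group has no linked region (grey) among its 11 red ones, and the second chromosome 17 group has 21.

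Most regions without a gene lay far from any region with one. The nearest linked 12-week region was a median of 535618 bases away, and it was over 1 Mb away for 184 of the 494. It was within 10 kb for 72 (14.6%), which together adjoined the linked regions of 52 genes. These 72 had a median width of 292.5 bases, against 262 for the other 422. Their median score was 4.46 and that of the adjoining linked region 4.67, and in 33 of 72 the region without a gene scored higher. Among 130 genes linked to 2 or more regions, none had a region without a gene between its own. The rule that linked genes is not given, and it may by itself produce this.

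Several of the 52 genes are transcription factors of the kind H3K27me3 is known to mark. They are linked to the adjoining regions, and their share among genes of the other linked regions was not counted. Hox genes adjoined 2 of the 72 (2.78%) and were linked to 12 of the 656 regions with a gene (1.83%). Sox17, needed for endoderm and arterial endothelium, had a region without a gene 7203 bases from its own, scoring 4.04. Gata2, a factor of blood and endothelium, had one at 4758 bases (score 3.60). Hoxb9 had one at 4259 bases, Hoxc11 at 3936, Lhx6 at 4650, Isl2 at 3823 and Nr4a2 at 4953. Fev, an ETS factor of serotonin neurons, had one at 1017 bases with a score of 7.71, above the 4.89 of its own region. Among signalling genes, the hedgehog ligand Ihh had one at 3006 bases (score 6.23), the VEGF receptor gene Flt1 one at 5479 (score 6.20) and the guidance ligand Slit3 one at 2032 (score 4.23). Prkcz, an atypical protein kinase C, had a pair at 997 and 2625 bases with scores of 6.96 and 6.24.

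By family, the nearest linked gene was a predicted gene for 139 of the 494 regions (28.14%), and 174 of the 656 linked regions (26.52%) carried such a gene themselves. Hox genes were nearest to 6 regions without a gene and linked to 12 others. Cytochrome P450 genes were nearest to 9 and linked to 11. No region had an immunoglobulin or T cell receptor segment, a vomeronasal receptor or a serpin gene as its nearest linked gene, and no 12-week region was linked to one.

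Between ages, no 12-week region without a gene overlapped a 68-week region. Both lists hold only regions called unique to 1 age, so this follows from how they were compiled and is not a result. The same held for 12-week regions with a gene. The nearest 68-week region was a median of 171571 bases away. It lay within 1 kb for 1 region, within 10 kb for 20 and within 100 kb for 169 (34.21%). For 12-week regions with a gene the median was 143187.5 bases, 46 (7.01%) lay within 10 kb and 44.36% within 100 kb. The closest approach was on chromosome 3, where the region at 141875540 to 141875766 lay 619 bases from a 68-week region linked to Bmpr1b, a BMP receptor gene. In second place was a region on chromosome 5 at 101673352 to 101673613, 1936 bases from a 68-week region that had no gene either. Of the 20 pairs within 10 kb, 13 had no linked gene on either side.

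RNA gave an independent readout for the 52 genes adjoining these regions. Most were weakly expressed in the heart, as were most of all genes counted. Of the 51 in the count table, 34 (66.7%) had a 12-week mean under 1 CPM (the count scaled to library size), and 5 had no count in any of the 8 libraries. Among these 5 was Hoxc11. The median was 0.186 CPM, beside 0.228 CPM for the genes linked to the other 12-week regions, of which 66.7% were also under 1 CPM. Over all genes counted, the share under 1 CPM was 72.4% and the median 0.0197 CPM, so the 51 were not lower than genes at large. Only 6 of the 51 reached 10 CPM, led by Flt1 with 132 CPM at 12 weeks and 148 at 68 weeks.

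Enough counts for a test remained for 21 of them. At 68 weeks 2 of the 21, Rab6b and Dock3, were higher by the edgeR quasi-likelihood test at an adjusted p of 0.05, and none was lower. Over all 15947 genes tested, 2.83% were called, 1.61% higher and 1.22% lower. The 2 calls were 9.52% of the 21, beside 19 of 209 (9.09%) among genes linked to the other 12-week regions. The difference was not tested, and 1 of the 2 calls, Dock3, was lost in 9 of 13 alternative analyses. Before adjustment, 7 of the 21 were higher and 3 lower at p under 0.05, where 9.26% and 9.77% of all genes tested were (19% in all). DESeq2 gave an adjusted p for 25 of the neighbours and called 4 higher and 2 lower. Its calls made up 5.84% of the 17008 genes for which it gave one (994 genes; 3.30% up and 2.55% down at 68 weeks).

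Rab6b adjoined 3 regions without a gene, with scores of 12.7, 4.46 and 7.24, and its own linked region scored 9.59. Its RNA was 17.4, 16.6, 14.9 and 18.6 CPM in the 12-week libraries and 29.7, 31.7, 25.8 and 28.8 CPM in the 68-week ones. Every 68-week library lay above every 12-week one. The log2 fold change was 0.78 ± 0.08 (SE; 68 minus 12 weeks), with an edgeR adjusted p of 0.003. It stayed called in each of 13 alternative analyses, with log2 fold changes of 0.65 to 0.83.

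Dock3 adjoined 4 regions without a gene, scoring 3.96, 3.24, 4.59 and 3.99, beside 4.58 for its own. Its RNA was 0.913, 1.08, 0.99 and 0.939 CPM at 12 weeks and 2.68, 1.30, 2.90 and 2.32 CPM at 68 weeks. The ages did not overlap, but the 68-week libraries were spread widely and the second lay near the 12-week values. The log2 fold change was 1.23 ± 0.25 (SE), with an edgeR adjusted p of 0.0351. The call was lost when any 1 library other than the second 68-week one was left out, with log2 fold changes of 1.11 to 1.28 and adjusted p of 0.0641 to 0.0903. Without that library the log2 fold change was 1.43 and the adjusted p 0.00995.

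Of the 19 other genes tested, Sox17 came nearest to a call. Its RNA was 9.28, 6.68, 9.64 and 8.88 CPM at 12 weeks and 12.2, 15.3, 11.1 and 11.8 CPM at 68 weeks. The ages did not overlap, and the log2 fold change was 0.55 ± 0.13 (SE) with an edgeR adjusted p of 0.066, short of the threshold. Prkcz had 4.58 ± 0.685 CPM at 12 weeks and 6.67 ± 1.05 at 68 weeks (SD, n = 4; edgeR adjusted p = 0.0787). Pcdh17, a protocadherin of cell adhesion, had 10.9 ± 2.80 and 6.01 ± 1.51 CPM (edgeR adjusted p = 0.0678). Lhx6 had 4.32 ± 1.01 and 2.80 ± 0.365 CPM (edgeR adjusted p = 0.0973). DESeq2 called these 4 as well, with adjusted p of 0.00505 for Sox17, 0.0196 for Prkcz, 0.00286 for Pcdh17 and 0.045 for Lhx6. Among the better expressed genes without a call, Slit3 had 45.6 ± 2.87 and 44.9 ± 8.18 CPM, and Gata2 17.7 ± 1.03 and 20.9 ± 2.15 CPM. H2-Q6 had 11.0 ± 3.09 and 11.6 ± 4.05 CPM, uncertain because close copies of it share sequence.

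**Figure D5:**
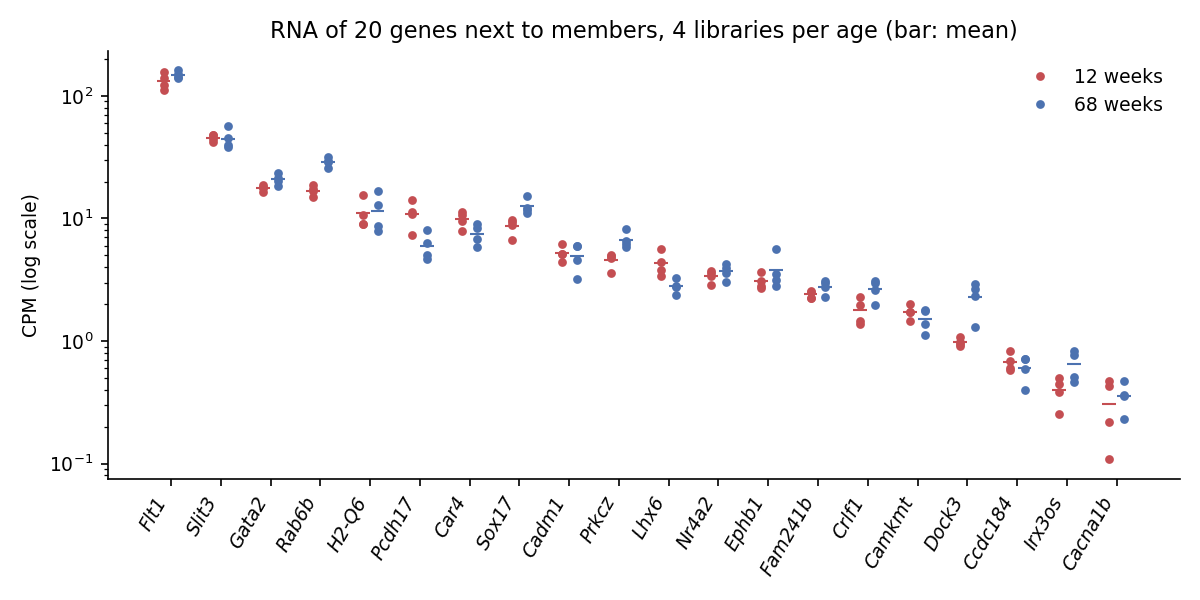
RNA level in CPM (log scale) of 20 of the 21 tested genes that adjoin a region without a linked gene, 1 point per library (4 per age) and a bar at the mean. Rab6b separates by age at 14.9 to 18.6 against 25.8 to 31.7 CPM.

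None of 13 genes listed for PRC2, the writer of the mark, was called in RNA by edgeR or by DESeq2. One listed gene, Eloa, is not a PRC2 subunit. Over all genes tested, edgeR called 2.83% and DESeq2 5.84%, so few calls are due among 13 and their absence says little. By edgeR 2 had an unadjusted p under 0.05, beside 19% of all genes tested. The summed level of the 13 was 492 to 497 CPM at 12 weeks and 488 to 517 at 68 weeks. Ezh1 had 46.8 ± 2.60 and 42.3 ± 2.27 CPM, and Ezh2 7.60 ± 0.908 and 6.38 ± 0.793 CPM. Of 3 genes listed as demethylases 1, Uty, was called lower (34.1 ± 1.02 against 30.1 ± 0.436 CPM, edgeR adjusted p = 0.0491), and DESeq2 called none. Uty is not among the demethylases named above. Kdm6a and Kdm6b, which are, were not called (edgeR adjusted p = 0.497 and 0.725). Over all genes tested, edgeR called 1.22% lower.

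The tissue label held, as 6 cardiomyocyte markers summed to 40000 to 46600 CPM at 12 weeks and 46600 to 51100 at 68 weeks. Markers of other cell types varied beside the RNA values above. The 5 airway markers summed to 19.4 to 1210 CPM (median 555) at 12 weeks and 0.476 to 842 CPM (median 0.755) at 68 weeks, with none called by edgeR or DESeq2 and 1 at an unadjusted p under 0.05. They were low in the fourth 12-week library and high in the third 68-week one, so the ages overlapped. The 4 adipocyte markers summed to 154 to 487 and 18 to 101 CPM, with 3 called lower. The 3 B cell markers summed to 1.66 to 6.33 and 0.685 to 1.56 CPM, with 2 called lower. With the airway sum in the model, the log2 fold change was 0.65 for Rab6b (edgeR adjusted p = 0.02) and 1.45 for Dock3 (edgeR adjusted p = 0.0845). The part of the adipocyte and B cell markers in these results was not tested. In whole heart, a change in the number of cells of a type and a change in RNA per cell cannot be told apart. Libraries held 23599296 to 31662601 counts at 12 weeks and 28842059 to 34599121 at 68 weeks.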

How the data were processed

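The deposited 12-week and 68-week region lists gave the authors' enrichment score per region, with no stated scale, and the width in bases. The submitters' processing notes name, with no role or order, MACS3 3.0.0b1, Picard 2.26.2, Bowtie2 2.4.2, SAMtools 1.14, STAR 2.5.2b, DESeq2, Trim Galore 0.6.5, Trimmomatic 0.36, and Subread 1.5.2 with featureCounts. How the libraries of an age were combined, and the rule that linked genes, are not given in the sources used here. RNA values were raw counts per gene, per the file headers.

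Regions were taken once per name, and those with no gene in any row kept. The start of chromosome 9 was the first 200 kb from 3000269, and gaps count the bases between regions. The labels name mm10, but linked genes lay off their positions in the count tables by chromosome medians of -814.1 to 683.3 kb. Coordinates were therefore not joined to any annotation or genome. Neighbour genes by position and sequence features were planned and not run. Genes linked by the authors to a 12-week region within 10 kb were used instead, chosen after seeing the files.

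RNA was tested with edgeR 4.0.16 in R 4.3.3 (quasi-likelihood, TMM, filterByExpr, Benjamini-Hochberg over 15947 genes, age alone). DESeq2 1.42.0 was an alternative. SE is the log2 fold change over the square root of F. CPM is the deposited count scaled to the normalized library size. The test was tried on simulated data. P-values measure the spread between libraries, which may be technical. Same-numbered libraries did not deviate together (correlations -0.243, -0.041, 0.041 and 0.33), so numbers were not used as pairs. Named regions are the 8 highest in score, the 5 widest, the largest groups and the closest pair. Named genes are called neighbours and the nearest linked genes, and further groups and genes were picked after their values were seen. The members and lists were chosen with earlier results of these data known. The values of 1 neighbour gene are not reported here.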

Additional observations from a re-analysis of the deposited data

How the results depend on the processing

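Of 54 alternative values for the results that answer a comparison, 34 made no change of note. Some of the 34 could not have moved, so this count does not measure robustness. The 14 regions at the start of chromosome 9 span 37881 bases, so other windows had to hold them all. Where no region overlapped the 68-week list, a stricter overlap had to give 0 too. The count of 495 held when regions were taken by position or when a gene missing in any row sufficed. The median gap of 917878 bases between consecutive regions without a gene was 1636406.5 without groups of 5 or more, whose short gaps are thereby left out. The gap to the nearest region of the whole list on either side, a different measure, had a median of 35704.5. The share on chromosome 17 was 4.27% without those groups. The overlap of 0 with the 68-week list, which follows from lists of regions unique to 1 age, became 1 region within 1 kb and 20 within 10 kb. Of neighbour genes, 2 were higher and 0 lower at 68 weeks. DESeq2 gave 4 and 2, no filter on low counts 3 and 1, and linked regions within 100 kb 5 and 1. Leaving out 1 library gave 1 to 2 higher and 0 to 1 lower, the latter being Pcdh17 without the second 12-week library (log2 fold change -1.02, edgeR adjusted p = 0.0431). The replicate block, for numbers that did not pair the libraries, gave 1 higher, Rab6b, and with it Dock3 had an adjusted p of 0.105. The airway sum in the model also gave 1 higher. The cause of these changes was not tested. Alternatives with groups of 5 or more left out, with 100 kb and with the airway sum were chosen after seeing the data. Neighbour genes by position and sequence features were not run, since the build of the region coordinates was not established. No library could be left out of a region list, which gives no value per library.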
